A study of Mus musculus with 12 samples.

Results

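The 32 genes described here are interferon-stimulated genes, a fixed list of transcripts that cells switch on when they sense interferon or foreign nucleic acid. They were listed by name rather than by a measured threshold, though with earlier results of these data known. All 32 were found among the 24906 genes listed for mouse small intestinal tumor organoids. A type I or type III interferon binds its receptor, the JAK kinases activate STAT proteins, and these join IRF9 in a complex that enters the nucleus and binds a short promoter element, the interferon-stimulated response element (ISRE). The proteins made in response detect viral RNA, degrade it, block its translation or hinder the exit of virus particles. In the intestine this response is best known as a barrier to enteric viruses, and IRF7, itself a target, carries it forward by inducing more interferon.

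The organoids were Smad4KO;BRAFV600E/+;pINDUCER-SMAD4, grown from the small intestine of mice in which the intestinal epithelium lost Smad4 and gained an active BRAF allele through a tamoxifen-inducible Cre driven by the Villin promoter. By this genotype they carried a lentiviral construct that expresses SMAD4, the shared partner of the receptor-activated SMAD proteins, when doxycycline (dox) is added, and the labels give this genotype for every library, control libraries included. Organoids were left untreated or given 4 µg/mL dox for 48 h, either inside basement membrane extract (BME), a 3-dimensional matrix, or on tissue culture plastic. The BME libraries were untreated organoids of lines 682, 700 and 889, dox-treated organoids of lines 700 and 889, and a mock library of line 682 whose treatment label reads as dox with the word mock and which the study counted as vehicle. Per the methods, some organoids were transduced with a mock plasmid rather than with the SMAD4 construct, but whether the label refers to that plasmid is not stated, so it is not known whether this library carried the construct. The plastic libraries were untreated and dox-treated organoids of lines 560, 700 and 889. The number in a sample's title was read as its organoid line, so treated and untreated libraries of a line were compared as a pair. The design asks whether SMAD4 expression moved these genes and whether it did so alike in both environments. No plastic library was a mock, so an effect of dox itself cannot be told apart there from one of SMAD4.

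Smad4 itself was checked first. In BME it was at 6.23 to 8.88 FPKM (fragments scaled by transcript length and sequencing depth) in the untreated libraries, 10.3 in the mock library and 17.2 and 27.3 with dox, and on plastic it was at 1.54 to 4.76 FPKM without dox and at 73.6, 18.1 and 48.9 with dox in lines 560, 700 and 889. From the spacing of the lowest values the depth was about 12.8 M to 15.8 M reads per BME library and 15.5 M to 20.5 M per plastic library. The 8 epithelial markers summed to 3892 to 17185 FPKM per library, while 7 fibroblast and 5 endothelial markers summed to at most 5.79 and 4.14 FPKM. Of the 10 leukocyte markers Adgre1 was at 0 in every library and Ptprc was at most 0.0959 FPKM, but Cd68, a lysosomal glycoprotein abundant in macrophages, was at 38.7 FPKM in the dox library of line 889 on plastic against 2.70 to 16.1 in the other 11 libraries, and its part in the results was not tested. In bulk RNA fewer cells of a type and less RNA per cell cannot be told apart.

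The promoters of several of these genes carry the ISRE, and the stretches upstream of 4 genes are shown because these are the ones among the 6 with the largest fitted change on plastic that hold a whole match there. The window searched ran from 250 bases before to 50 bases after each gene's start in RefSeq (GRCm38.p6), and the motif was GAAANNGAAA on both strands, with overlapping matches counted apart. A window was matched for 23 of the 32 genes, and 11 of these 23 (47.8%) held at least 1 ISRE, against 3.99% of all 27025 genes with a window. The 11 were Bst2, Ddx58, Eif2ak2, Ifih1, Ifit1, Ifit3, Isg15, Oas1a, Oas3, Rsad2 and Stat2. The interferon-gamma element TTCNNNGAA, the GAS motif, was in 5 of the 23 (21.7%: Bst2, Eif2ak2, Ifit2, Irf1 and Oas1a) against 9.55% of all genes. Each line gives the 150 bases before the start, 5′ to 3′ on the strand of the gene, with the bases of an ISRE match in capitals. A match is a description of the letters and not evidence of binding.
Isg15 (chr4:156200819-156200968, minus strand): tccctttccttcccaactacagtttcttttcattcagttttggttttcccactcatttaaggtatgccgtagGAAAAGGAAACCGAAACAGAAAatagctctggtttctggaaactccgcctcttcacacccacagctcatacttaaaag
Ifit1 (chr19:34640739-34640888, plus strand): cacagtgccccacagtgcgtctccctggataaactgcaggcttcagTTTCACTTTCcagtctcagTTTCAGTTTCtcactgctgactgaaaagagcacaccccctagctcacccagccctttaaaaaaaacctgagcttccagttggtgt
Ifit3 (chr19:34583379-34583528, plus strand): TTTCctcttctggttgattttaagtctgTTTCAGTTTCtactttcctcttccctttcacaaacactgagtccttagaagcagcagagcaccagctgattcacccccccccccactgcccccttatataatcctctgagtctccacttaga
Rsad2 (chr12:26456453-26456602, minus strand): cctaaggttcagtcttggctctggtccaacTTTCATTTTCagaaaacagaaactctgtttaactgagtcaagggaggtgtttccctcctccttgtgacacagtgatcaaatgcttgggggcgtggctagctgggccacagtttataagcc
The Isg15 stretch held 3 overlapping ISRE matches, the Ifit1 stretch 2 separate matches, and the Ifit3 and Rsad2 stretches 1 each. The Ifit3 stretch opens with the last bases of a further match that begins before it. The window of Irf7, another of the 6, held no match to these letters, and neither did that of Oasl1, which also had a large change on plastic. Usp18, also among the 6, had no matched window and was not searched.

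Levels of the 32 genes were spread more widely over lines than within any pair in BME. The mean log2(FPKM + 1) over the 32 genes was 2.85 in untreated and 2.68 in mock line 682, 4.49 without and 4.39 with dox in line 700, and 4.21 without and 3.27 with dox in line 889. On plastic the same mean went from 2.06 to 3.19 in line 560, from 1.76 to 1.81 in line 700 and from 1.93 to 2.89 in line 889. The BME and plastic values were normalized in separate tables, so levels were not tested across them. Both libraries of line 682 were below the other 4 BME libraries for 24 of the 32 genes, against 13% of all 12996 genes tested. A filter of a mean of at least 0.5 FPKM per table left all 32 genes in BME and 28 on plastic, where Ifit2, Oas2, Mx2 and Ifi44 were below it. On plastic 5 of the 28 (Cmpk2, Dhx58, Ifit1, Ifit3 and Rsad2) had an untreated mean of 0.161 to 0.440 FPKM and passed only through the dox libraries, so counts over the 28 are a description and no evidence of a direction.

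**Figure D1:**
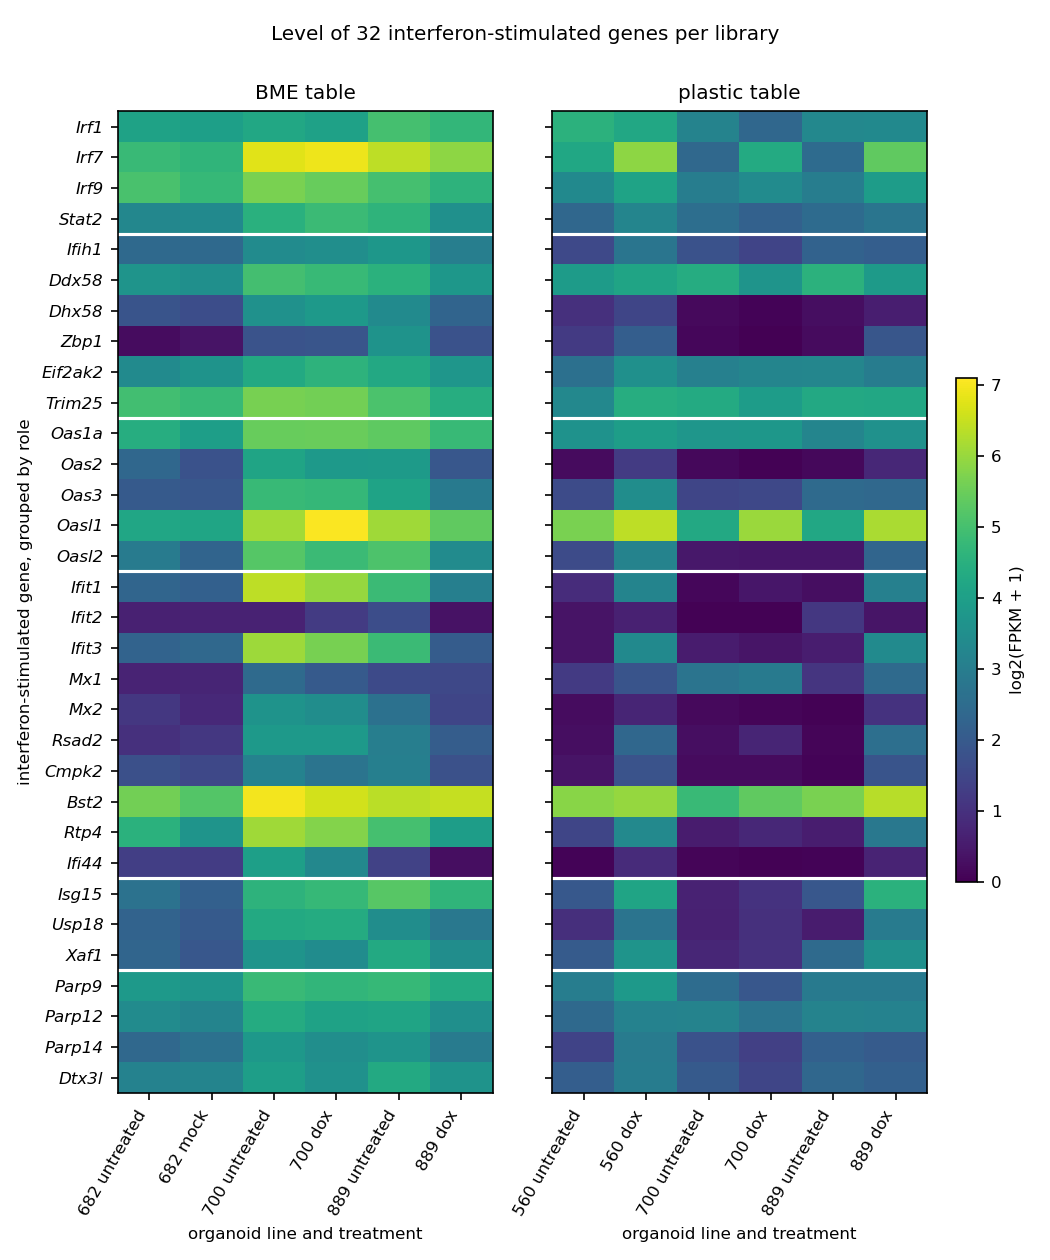
Level of each of the 32 genes as log2(FPKM + 1), by colour, in the 6 BME libraries (left) and the 6 plastic libraries (right), with white lines between roles. Line 682 is dark beside lines 700 and 889 in BME, and on plastic the dox columns of lines 560 and 889 are brighter than their untreated columns, which the dox column of line 700 shows for few genes.

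Within pairs of the same line, dox went with higher levels in 2 of the 3 plastic lines and with lower levels in 1 of the 2 BME lines. On plastic, 14 of the 28 genes were higher by over 1 on the log2(FPKM + 1) scale in line 560, against 10% of the 12333 genes tested, 13 in line 889, against 7.32%, and 2 (Irf7 and Oasl1) in line 700, against 3.96%. The 14 and the 13 each held Cmpk2, Ifit1, Ifit3 and Rsad2, and without the 5 genes that passed through dox the counts were 10, 9 and 2 of 23. Over all 32 genes without the filter they were 15 in line 560, 13 in line 889 and 2 in line 700. None was lower by over 1 in these pairs, against 4.77%, 4.73% and 3.92% of the genes tested. In BME none was higher by over 1 in line 700 (1.75% of 12996 genes), line 889 (2.49%) or the mock pair of line 682 (1.29%). In line 889 in BME, 13 of 32 were lower by over 1, against 1.67% of genes, and none was in line 700 (1.79%) or the mock pair (1.18%). Counted by direction alone, 12 of 32 were higher in line 700, 1 in line 889 and 9 in the mock pair, against 48.3%, 48.8% and 48.1% of all genes. The median change of the 28 genes on plastic was 1.03 in line 560, 0.01 in line 700 and 0.79 in line 889 (0.93, -0.02 and 0.65 over all 32), and that of the 32 in BME was -0.17 in line 700, -0.75 in line 889 and -0.14 in the mock pair, while the median over all genes tested was within 0.01 of 0 in each pair. Smad4 on plastic was highest with dox in line 560, lower in line 889 and lowest in line 700, the same order as these medians. In BME the order was the other way, with Smad4 at 27.3 FPKM and a median of -0.75 in line 889 and 17.2 FPKM and -0.17 in line 700, and the part of Smad4 in the difference between lines was not tested.

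**Figure D2:**
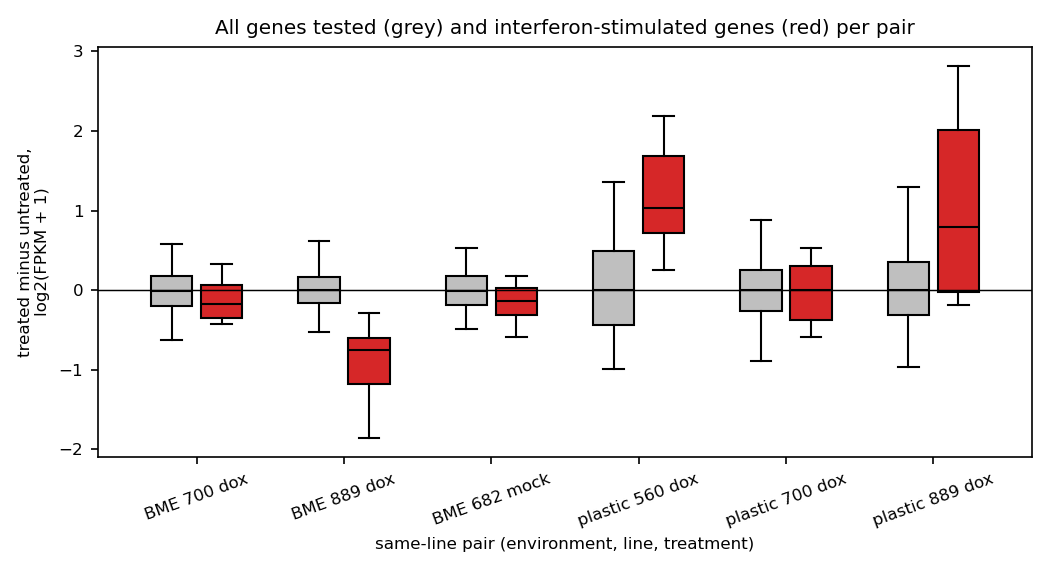
Change within each same-line pair, treated minus untreated, on the log2(FPKM + 1) scale for all genes tested (grey) and the interferon-stimulated genes that passed the filter (red), with boxes from the lower to the upper quartile, a line at the median and whiskers at the 5th and 95th percentiles. The red medians are 1.03 and 0.79 in lines 560 and 889 on plastic and -0.75 in line 889 in BME, while the grey medians lie within 0.01 of 0.

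Counted over pairs, 12 of the 28 genes were higher with dox in 3 of 3 plastic pairs, against 18.6% of all genes, namely Bst2, Ifit1, Irf7, Irf9, Isg15, Mx1, Oas1a, Oasl1, Rsad2, Rtp4, Usp18 and Xaf1. None was lower in all 3, against 18.7%. In BME, 19 of 32 were lower in both dox pairs, against 29.5%, and none was higher in both, against 27.2%. Ifit1, Irf9, Mx1, Rtp4 and Xaf1 were lower in both BME pairs and higher in all 3 plastic pairs, which made 5 of 28 genes against 2.61% of the 11977 genes kept in both tables. Every dox library was above every untreated library on plastic for 5 of the 28 genes (Irf7, Irf9, Oasl1, Rsad2 and Usp18), against 7.87%, and below for none, against 7.26%. In BME the dox libraries were above all 4 controls, or below all 4, for none of the 32, against 6.33% and 5.83%. Among the genes counted here, Ifit1 and Rsad2 had passed the filter on plastic only through dox. The counts over the 28 are thus a description and no evidence of a direction.

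No single gene passed the test across all genes. The test was limma on log2(FPKM + 1), two-sided, with Benjamini-Hochberg adjustment over all genes tested, and a gene was called where the adjusted p was below 0.05 and the change exceeded 1 in size. On plastic (3 dox against 3 untreated) 0 of 28 were called, against 0.0324% of genes (4 of 12333), and the lowest adjusted p was 0.437 (Oasl1). In BME (2 dox against 4 controls) 0 of 32 were called, against 0.0231% (3 of 12996), with a lowest adjusted p of 0.959. At an unadjusted p under 0.05 with a change over 1, 5 of 28 were higher on plastic (Ifit1, Irf7, Oasl1, Rsad2 and Usp18, of which Ifit1 and Rsad2 passed the filter only through dox), against 2.37%, and 0 lower, against 1.27%, while in BME 0 of 32 were higher or lower, against 0.746% and 0.208%. With organoid line as a block, which compares each dox library with its own line, there was again no call, 0 of 28 on plastic against 0.0568% and 0 of 32 in BME against 0% of genes. The lowest limma adjusted p with the block was 0.115 on plastic (Irf7) and 0.671 in BME. For single genes below, the SE and adjusted p are from the fit without the block unless the block is named. The unadjusted count with the block was 10 of 28 higher on plastic, or 6 of 23 without the genes that passed through dox, against 3.22%, and 4 of 32 lower in BME (Ifit1, Ifit3, Oas2 and Oasl2), against 0.354%. Without the dox library of line 700 the test on plastic called 3 genes, Ifit1, Ifit3 and Rsad2, among 46 of 12333, with adjusted p from 0.0222 to 0.0458, and all 3 had passed the filter only through dox.

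The direction in BME depended on whether lines were compared with themselves. Without the block 24 of 32 genes had a change above 0 and the median was 0.25, against 49% of all genes above 0, and with the block 1 of 32 (Oasl1, 0.10) was above 0, against 47.7% of all genes, and the median was -0.44. The control arm without the block holds both libraries of line 682, which are low for most of these genes and have no dox library beside them, and with both left out the count was again 1 of 32 and the median -0.44. On plastic, where each line has a pair, 26 of 28 were above 0, against 51.1% of all genes, with a median of 0.66 either way, but the median was 0.42 and the count 21 without the dox library of line 560, and the median was 0.44 over the 23 genes that did not need dox to pass the filter.

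Among the regulators, Irf7 had the largest fitted change on plastic. Irf7, the transcription factor that drives interferon production, was at 17.9, 4.27 and 4.60 FPKM without dox in lines 560, 700 and 889 and at 58.5, 19.4 and 40.6 with dox. Every dox library was above every untreated one, and the pairs were 3.27-fold, 4.53-fold and 8.83-fold higher, with a fitted change of 2.17 on the log2 scale (SE 0.61, limma adjusted p = 0.454). With the line block the SE of Irf7 was 0.29 and its limma adjusted p 0.115. In BME it was at 27.0 and 23.8 FPKM in the untreated and mock libraries of line 682, 109 without and 120 with dox in line 700, and 82.7 and 58.9 in line 889. The arms overlapped there, and the fitted change of 0.76 (SE 0.71, limma adjusted p = 0.959) was -0.17 with the line block. Irf9, the DNA-binding partner of STAT2, was at 9.36, 7.02 and 7.03 FPKM on plastic without dox and 16.4, 9.77 and 14.2 with dox, so its dox libraries were also all above its untreated ones. In BME Irf9 was at 32.6 and 26.3 FPKM in line 682, 49.6 and 42.5 in line 700 and 31.4 and 23.2 in line 889, lower in the treated or mock library of each line. Irf1, an early transcription factor induced mainly by interferon gamma, was at 22.8, 7.99 and 9.04 FPKM on plastic without dox and 18.2, 4.14 and 9.38 with it, and was the only gene of the 28 not higher in line 560. Stat2, a transcription factor of the same complex, differed by 0.86, -0.36 and 0.29 in the plastic pairs of lines 560, 700 and 889 and by 0.33 and -1.05 in the BME pairs of lines 700 and 889.

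The 6 sensing genes were split by line on plastic, with all 6 higher in line 560, 1 in line 700 and 2 in line 889. Over all genes tested 49.7%, 48.95% and 50.45% were higher in these pairs. Ddx58, which encodes the RNA sensor RIG-I, was at 13.9, 19.9 and 22.5 FPKM without dox and 16.8, 11.9 and 13.5 with dox, lower in lines 700 and 889. Trim25, a ubiquitin ligase that acts on RIG-I, was at 8.97, 19.2 and 18.6 FPKM without dox and 20.5, 14.3 and 18.3 with it, higher in line 560 alone. In BME Trim25 was at 29.7 and 26.8 FPKM in line 682, 48.7 and 47.0 in line 700 and 33.1 and 20.7 in line 889. Zbp1, a sensor of left-handed nucleic acid, ranged from 0 FPKM in the dox library of line 700 on plastic to 11.5 in untreated line 889 in BME, and its pair changes were 0.91, -0.11 and 1.68 on plastic. Ifih1 (the RNA sensor MDA5), Dhx58 (the RIG-I-like protein LGP2) and Eif2ak2 (the kinase PKR, which blocks translation) differed by -0.34 to 1.18 on plastic, and all 6 sensing genes were lower with dox in line 889 in BME, by 0.57 to 1.86.

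The OAS family makes the signal that activates RNase L, and its inactive relative Oasl1 had the highest levels of the 5 on plastic and was higher with dox in all 3 plastic lines. Oasl1, which inhibits translation of Irf7 mRNA, was at 50.1, 18.4 and 18.2 FPKM on plastic without dox in lines 560, 700 and 889 and at 82.7, 64.6 and 72.2 with dox. The dox libraries were all above the untreated ones, and the change was 1.47 (SE 0.40, limma adjusted p = 0.437). With the line block the SE of Oasl1 on plastic was 0.29 and its limma adjusted p 0.174. In BME it was at 17.3 and 17 FPKM in line 682, 67.8 without and 131 with dox in line 700 and 67.3 without and 40.1 with dox in line 889. The BME pairs were thus of opposite direction, and the fitted change of 1.06 (SE 0.79, limma adjusted p = 0.959) was 0.10 with the line block, 0.22 without the dox library of line 700 and 1.91 without that of line 889. Oas3 was at 2.08, 1.81 and 4.47 FPKM on plastic without dox and 10.2, 1.91 and 4.24 with it, with pair differences of 1.86, 0.05 and -0.06. In BME Oas3 was at 3.04 and 2.83 FPKM in line 682, 26.7 and 25.6 in line 700 and 16.3 and 6.55 in line 889, and its change of 0.61 (SE 0.98, limma adjusted p = 0.965) was -0.63 with the line block. Oasl2 was higher on plastic by 1.56 and 1.89 in lines 560 and 889 and differed by -0.03 in line 700, Oas2 by 1.02, 0.64 and -0.10, and Oas1a, which shares sequence with several Oas1 copies and is therefore uncertain, by 0.34, 0.37 and 0.03. Oas1a, Oas2 and Oas3 lie in one stretch of chromosome 5 (chr5:121180342-121357536, NCBIM37). Oas2 and Oas3 are side by side there, while Oas1a starts at 121346265, apart from the end of Oas3 at 121227670. Oasl1 and Oasl2 also lie side by side (chr5:115346943-115387924).

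The 10 antiviral effectors held the widest pair differences. Ifit1, which binds viral RNA that lacks the host cap, was at 0.865, 0.0986 and 0.203 FPKM on plastic without dox in lines 560, 700 and 889 and at 8.28, 0.343 and 7.56 with dox. These values correspond to about 46, 5 and 11 reads without and 443, 15 and 310 reads with dox, so line 700 remained low and its ratio of 3.48 rests on few reads. The change was 1.81 (SE 0.76, limma adjusted p = 0.603). In BME Ifit1 was at 3.96 and 3.50 FPKM in line 682, 82.7 without and 62.5 with dox in line 700 and 27.8 and 7.30 in line 889, lower in the treated library of each line, and its change of 0.59 without the block (SE 1.42, limma adjusted p = 0.979) was -1.10 with it. Ifit3, a partner that stabilizes Ifit1, was at 0.305, 0.454 and 0.476 FPKM on plastic without dox and at 9.38, 0.309 and 9.44 with it, so lines 560 and 889 were 30.8-fold and 19.8-fold higher and line 700 was lower, but the untreated values rest on about 12, 17 and 19 reads and the dox value of line 700 on about 10. The change was 1.89 (SE 0.80, limma adjusted p = 0.606), and a near-identical neighbour, Ifit3b, makes the value uncertain. In BME Ifit3 was at 3.79 and 4.24 FPKM in line 682, 65.9 and 48.8 in line 700 and 27.7 and 3.17 in line 889, the lowest pair difference of the 32 genes, at -2.79. Ifit2, Ifit3 and Ifit1 form a cluster on chromosome 19 (chr19:34625184-34724499, NCBIM37), yet Ifit2 was at most 2.18 FPKM in any library and did not pass the filter on plastic.

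Rsad2, the enzyme viperin, which makes a chain-terminating nucleotide, was at 0.205, 0.202 and 0.0756 FPKM on plastic without dox and at 4.22, 0.655 and 5.05 with dox. The dox libraries were all above the untreated ones (about 331, 42 and 304 reads against 16, 15 and 6), and the change was 1.69 (SE 0.50, limma adjusted p = 0.485). In BME Rsad2 was at 0.982 and 1.23 FPKM in line 682, 13.3 both without and with dox in line 700 and 7.17 and 3.26 in line 889, and its change of 0.71 (SE 0.95, limma adjusted p = 0.963) was -0.47 with the line block. Cmpk2, the neighbouring kinase on chromosome 12 that supplies nucleotides to viperin, was higher by 1.43 and 1.79 in lines 560 and 889 on plastic and differed by -0.01 in line 700. Bst2 (tetherin), which holds budding virus at the cell surface, had the highest mean level of the 32 in either table. It was at 56.4, 27.3 and 49.8 FPKM on plastic without dox and 61.6, 40.0 and 79.5 with it, and at 47.1 and 35.9 in line 682, 125 and 97.3 in line 700 and 81.9 and 88.8 in line 889 in BME. Bst2 was the only gene of the 32 not lower with dox in line 889 in BME. Rtp4, a receptor-trafficking protein with antiviral activity, was at 1.79, 0.453 and 0.491 FPKM on plastic without dox and 9.08, 0.726 and 6.17 with it, and in BME at 22 and 11.7 in line 682, 67.4 and 54.5 in line 700 and 31.2 and 14.6 in line 889, so it was lower in the treated or mock library of each BME line. Mx1, a GTPase that blocks influenza virus, differed in being highest on plastic in line 700, at 5.66 FPKM without and 6.66 with dox, while Mx2 was at most 1.04 FPKM on plastic. Ifi44 differed by 0.81, -0.07 and 0.64 on plastic but was at most 0.840 FPKM there, and in BME by -0.69 in line 700 and -1.14 in line 889.

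**Figure D3:**
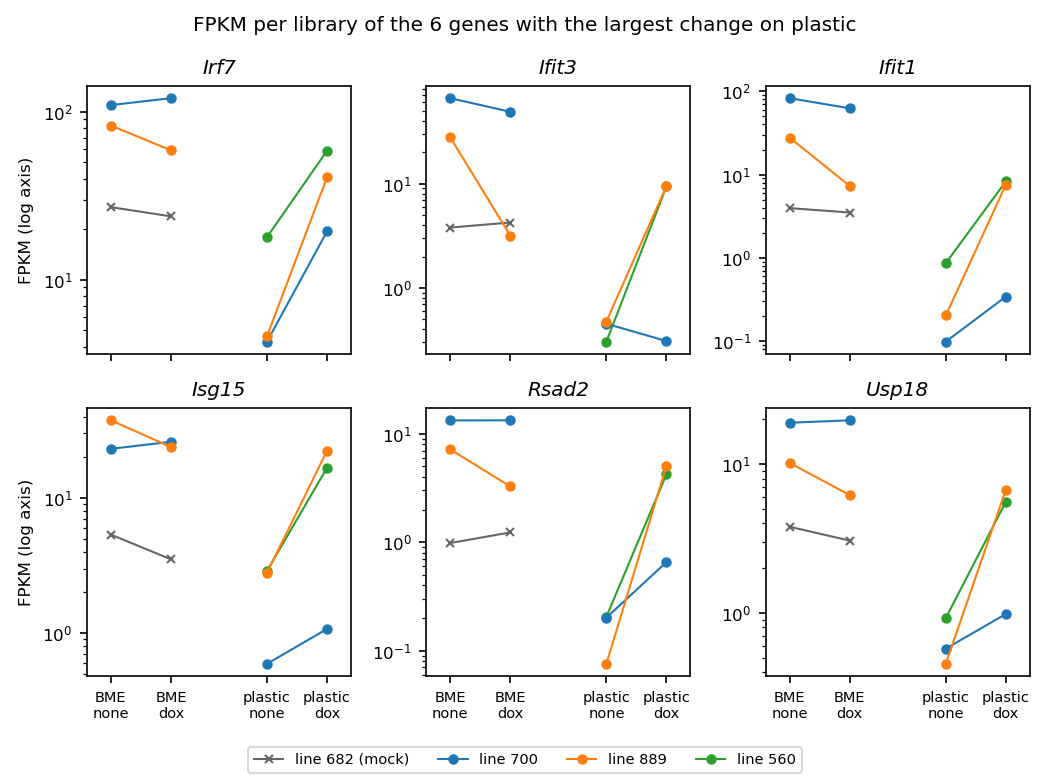
FPKM, on a log axis, of the 6 genes with the largest fitted change on plastic, with each line joining the untreated library to the dox or mock library of the same organoid line (none, untreated). On plastic Irf7 is higher with dox in all 3 lines, from 4.27 to 19.4 FPKM in line 700, while Ifit3 in line 700 goes from 0.454 to 0.309; the BME values were normalized in a separate table.

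Isg15, its protease Usp18 and the cell death gene Xaf1 were higher with dox in every plastic pair. Isg15, a ubiquitin-like protein that is joined to other proteins, was at 2.89, 0.593 and 2.80 FPKM without dox in lines 560, 700 and 889 and at 16.7, 1.07 and 22.3 with dox. The pairs were 5.79-fold, 1.81-fold and 7.99-fold higher, but the dox library of line 700 was below the untreated libraries of the other two lines, and the change was 1.73 (SE 0.94, limma adjusted p = 0.679). In BME Isg15 was at 5.36 and 3.52 FPKM in line 682, 23.1 and 26.0 in line 700 and 37.5 and 23.8 in line 889, and its change of 1.02 (SE 0.90, limma adjusted p = 0.959) was -0.23 with the line block. Usp18, the protease that removes ISG15 and restrains the interferon receptor, was at 0.925, 0.577 and 0.456 FPKM on plastic without dox and 5.58, 0.985 and 6.73 with it, with every dox library above every untreated one (change 1.5, SE 0.52, limma adjusted p = 0.555). In BME Usp18 was at 3.79 and 3.06 FPKM in line 682, 18.9 and 19.7 in line 700 and 10.2 and 6.20 in line 889. Xaf1, a pro-apoptotic protein that opposes XIAP, was higher on plastic by 1.64, 0.23 and 1.11 in lines 560, 700 and 889 and lower in BME by 0.22 and 0.83 in lines 700 and 889 and by 0.40 in the mock pair.

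The PARP group was not of the same direction in the 3 plastic lines. Parp9, Parp12, Parp14 and Dtx3l, which encode ADP-ribosyl transferases and the ubiquitin ligase that pairs with PARP9, were all 4 higher with dox in line 560, by 0.71 to 1.52, and all 4 lower in line 700, by 0.44 to 0.59, and in line 889, by 0.02 to 0.19. Their levels ranged from 1.55 to 13.0 FPKM on plastic and from 4.26 to 27.0 in BME. In BME all 4 were lower with dox in both pairs, by 0.14 to 0.39 in line 700 and 0.42 to 0.73 in line 889. Parp9 and Dtx3l overlap at their starts on opposite strands of chromosome 16 (35938556 to 35939237, NCBIM37), and whether reads were assigned by strand was not given in the sources used here, so reads of the pair cannot be told apart within the overlap.

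**Figure D4:**
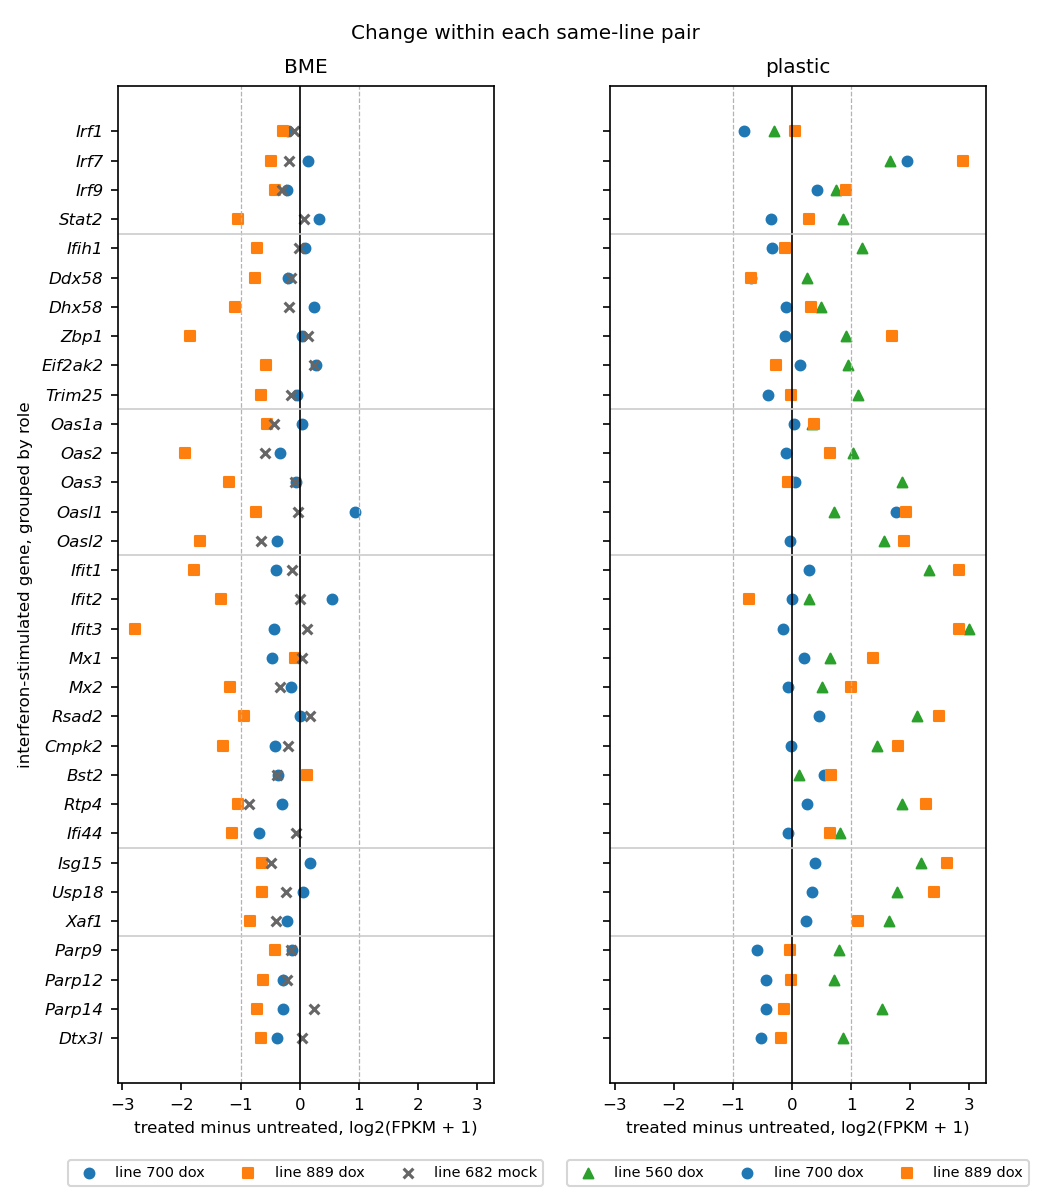
Change of each of the 32 genes within each same-line pair, treated minus untreated, on the log2(FPKM + 1) scale, in BME (left) and on plastic (right), with dashed lines at -1 and 1 and grey lines between roles. On plastic lines 560 and 889 lie right of 0 for most effectors, up to 2.99 for Ifit3, while the PARP group is right of 0 in line 560 alone; in BME line 889 lies left of 0 for 31 of 32 genes.

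The difference between environments was tested directly, by an interaction term for dox and environment in a fit of 11977 genes that held 28 of the 32. None of the 28 was called, against 0% of genes, and the lowest limma adjusted p was 0.9999. At an unadjusted p under 0.05 with a difference over 1 there were also 0 of 28 in either direction, against 0.71% and 0.618% of genes. With line within environment as a block there was again no call (0% of genes), and the lowest limma adjusted p was 0.507 (Irf7, a change 2.34 higher on plastic than in BME, SE 0.39). With that block 14 of 28 genes were at an unadjusted p under 0.05 with a change over 1 higher on plastic, against 1.27% of genes, and 27 of 28 differences were above 0 (51.7% of all genes) with a median of 1.01 against 0.01 over all genes. Without the block 21 of 28 were above 0 (51.4% of all genes) with a median of 0.34. The 14 were Cmpk2, Ifit1, Ifit3, Irf7, Irf9, Isg15, Mx1, Oasl1, Oasl2, Rsad2, Rtp4, Usp18, Xaf1 and Zbp1, among them Cmpk2, Ifit1, Ifit3 and Rsad2, which passed the filter on plastic only through dox. Dhx58, also in the 28, passed in the same way. The counts and medians over the 28 are thus a description and no evidence of a direction.

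Other genes of the pathway, taken from lists set by name with earlier results of these data known, gave the following values. The 10 interferon genes found summed to at most 0.496 FPKM in any library, and Ifnb1 was listed at 0 in 11 of the 12 libraries and at 0.109 FPKM in untreated line 700 in BME. Of 11 receptor and JAK-STAT genes 11 had a change above 0 in BME without the line block (median 0.35), 10 with it (median 0.17) and 10 on plastic (median 0.50), and 0 were called; over all genes tested 49%, 47.7% and 51.1% were above 0. Ifngr1, a chain of the interferon gamma receptor, was higher in each of the 5 dox pairs and in the mock pair by 0.74 to 1.40 (plastic change 1.22, SE 0.19, limma adjusted p = 0.157). Of 14 sensing and induction genes tested 10 were above 0 in BME without the block, 8 with it and 8 on plastic, and of 7 feedback genes 3, 2 and 5, with 0 called. Socs3, which blocks JAK kinases and is induced by several cytokines, was higher in all 5 dox pairs and, by 1.57, in the mock pair (plastic change 3.17, SE 0.39, limma adjusted p = 0.108). Among other interferon-stimulated genes 30 of 40 tested were above 0 in BME without the line block (median 0.22), but 11 of 40 with it (median -0.29). On plastic 25 of 39 were above 0 (median 0.17), 0 were called in either environment, and Apol9b and Ube2l6, the conjugating enzyme for ISG15, were at an unadjusted p under 0.05 with a change over 1 on plastic, against 2.37% of all genes. Apol9b was at 0.199 to 0.243 FPKM on plastic without dox and passed the filter only through the dox libraries. Ube2l6 was at 7.64, 5.48 and 4.78 FPKM on plastic without dox and 21.8, 15.5 and 32.7 with dox, each dox library above each untreated one (change 1.76, SE 0.32, limma adjusted p = 0.203). Uba7, the activating enzyme for ISG15, was lower with dox on plastic by 0.17, 0.52 and 0.12 in lines 560, 700 and 889, and Herc6, its ligase in the mouse, differed by 0.52, -0.51 and -0.40. In the same lines Ifitm1 differed by -1.98, 0 and 2.50, Ifitm2 by -1.40, 0.26 and 0.55 and Ifitm3 by -1.87, -0.14 and 2.63.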

How the data were processed

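Total RNA of 12 organoid cultures was sequenced (6 in BME, 6 on plastic). Per the labels and the study's methods, the authors used kallisto and DESeq2 with build mm9, and deposited FPKM per gene in a table for each environment, which were used here as given. Tables of the authors' own dox comparisons (fold changes and p-values) were not used. Median-of-ratios factors were equal within each table, so the FPKM already carry a scaling between libraries. Genes with a mean of at least 0.5 FPKM were tested with limma 3.58.1 (R 4.3.3, trend) on log2(FPKM + 1), which understates changes of low genes, with Benjamini-Hochberg adjustment. FPKM are not counts, so no count test was run. The script was tested on simulated data. Named in full were the 6 genes with the largest change and the 6 with the highest mean per environment. The genes and lists were chosen with earlier results of these data known. Libraries that share a line number deviated together (correlations 0.176 to 0.660), so the line pairs them. Whether lines come from separate animals is not stated, so p-values measure the spread between these cultures. Depth and reads are approximate, from steps in low FPKM and transcript lengths (GENCODE vM1). Promoters were from RefSeq. No entry was matched for Dhx58, Zbp1, Oas2, Mx1, Mx2, Rtp4, Usp18, Parp9 and Parp14. Alternatives were another pseudocount, other filters, rescaling, the line block and leaving out each library; leaving out line 682 and equal library sums were chosen after seeing the data.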

Additional observations from a re-analysis of the deposited data

Results flagged for a closer look

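Of the 32 genes, 2 had a library set apart in the 4 BME control libraries by the gap between it and its nearest neighbour as a share of the range. Ifit2 was highest in untreated line 889, at 2.18 FPKM against 0.575 to 0.605 in the other 3 (gap 0.981 of the range), and Ifi44 was highest in untreated line 700, at 15.0 FPKM against 1.41 to 1.65 (gap 0.982). Chance alone sets a library apart in about 1 in 20 groups of independent libraries, and these 4 are not independent, since 2 of them are line 682. In 5 genes every BME dox pair was lower and every plastic dox pair higher. The mean pair change on plastic minus that in BME was 2.91 for Ifit1, 2.13 for Rtp4, 1.52 for Xaf1, 1.02 for Irf9 and 1.01 for Mx1 on the log2(FPKM + 1) scale. In the test of the interaction itself these did not pass the test (limma adjusted p = 0.9999 without the line block and from 0.855 to 0.877 with it), so a difference between environments was not shown for any of the 5.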

How the results depend on the processing

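With the replicate block (organoid line), the median change of the genes in BME was -0.441 in place of 0.254 and 1 of 32 in place of 24 were above 0. Leaving out line 682, which has no dox library, gives the same changes by construction and is no second check. The block turned 5 of the 6 named changes in BME: Ifit1 to -1.10, Oas3 to -0.63, Rsad2 to -0.47, Isg15 to -0.23 and Irf7 to -0.17. Leaving out single BME libraries moved the median from -0.221 to 0.679 and the count above 0 from 10 to 31, and without the dox library of line 700 Rsad2 was at -0.16, Oas3 at -0.30 and Ifit1 at -0.88, against 1.59, 1.52 and 2.06 without that of line 889. Leaving out single plastic libraries called between 0 and 3 genes, the 3 (Ifit1 2.72, Ifit3 2.89, Rsad2 2.28) without the dox library of line 700. That library decides those calls. Pseudocount 0.1, no filter, a mean of at least 1 FPKM and equal library sums gave no call and turned no direction among the named genes. With pseudocount 0.1, however, Rsad2 on plastic went from 1.69 to 3.34 and Ifit1 from 1.81 to 2.98. Median-of-ratios rescaling divided every library of an environment by the same factor, so it could not test how the results depend on scaling. Without single plastic libraries the median there was 0.42 to 0.80, the count above 0 was 21 to 27, and Isg15 was at 1.08 to 2.83. No alternative called a gene in BME or in the interaction. A count model on rebuilt reads was not run, since whole reads could be rebuilt for genes with low values only. Where the low values of Ifit1, Ifit3 and Rsad2 on plastic rest on 5 to 46 reads, depth limits their ratios. The cause of these shifts was not tested.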
